A study of Mus musculus with 16 samples.

Results

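Voltage-gated potassium channel alpha subunits form the pore of channels that open with a change in membrane voltage. Their RNA was followed in mouse hippocampus and striatum, in whole tissue and on the ribosomes of astrocytes. Members were taken by symbol: every row whose gene name was Kcn, then exactly 1 of the letters a, b, c, d, f, g, h, q, s and v, then a number. This gave 40 genes of the 24060 gene labels in each table, namely 8 Kcna, 2 Kcnb, 4 Kcnc, 3 Kcnd, 5 Kcnq, 8 Kcnh and 10 of the modifier genes Kcnf, Kcng, Kcns and Kcnv. The rule uses the symbol alone, though it was set with earlier results of these data known. A filter of at least 1 FPKM (fragments per kilobase of gene, scaled to the depth of the library) in at least 4 libraries was passed by 34 members. The other 6, Kcna7, Kcna10, Kcnh6, Kcnh8, Kcnq1 and Kcnv2, were not tested, and their highest value in any library was 1.68 FPKM after scaling between libraries, for Kcnh6 in a striatal input.

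The libraries came from 4 adult mice, numbered 970, 971, 974 and 977, at postnatal day 63. All 16 libraries share 1 genotype, Aldh1l1-creERT2 hemi and Ribotag het, on FVB backcrossed to C57/Bl6N. Males and females were used, and the sex of each animal is not given in the sources used here. In these mice a Cre recombinase driven by the Aldh1l1 promoter, which is active in astrocytes, switches on a hemagglutinin tag on a ribosomal protein. Tagged ribosomes can then be pulled out of a lysate together with the RNA they carry. Each animal gave 4 libraries, 1 per group: the cleared lysate (input) and the RNA of the precipitated ribosomes (IP), from whole hippocampus and from whole striatum. The treatment that activates creERT2 is not given in the sources used here, and no mice without Cre were analysed here.

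Channels of this family are assembled from several alpha subunits, alike or mixed within a subfamily. Kcna (Kv1) channels open at low voltages and set the spike threshold of axons, and Kcnb (Kv2) channels are slow delayed rectifiers of the cell body. Kcnc (Kv3) channels close fast and allow rapid firing, and Kcnd (Kv4) channels carry the transient A-type current of dendrites. Kcnq (Kv7) channels carry the M current, which muscarinic receptors shut off, and Kcnh genes encode the EAG, ERG and ELK channels. The Kcnf, Kcng, Kcns and Kcnv products do not form channels alone but join Kcnb subunits and change their gating. The family is best known from neurons, while the potassium conductance of mature astrocytes is attributed chiefly to inward rectifier channels, which the name rule does not cover.

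The members share a stretch of pore-forming coding sequence, the selectivity filter. It is printed for 7 genes of several subfamilies that the results turn on, so that the relatives set side by side can be compared. The capitals mark 15 bases (5 codons) of the filter, with 15 bases on each side in lower case, from the coding sequence of GENCODE vM21 (mouse GRCm38/mm10), 5′ to 3′ on the coding strand.
Kcna2: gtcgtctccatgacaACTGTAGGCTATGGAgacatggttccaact
Kcna6: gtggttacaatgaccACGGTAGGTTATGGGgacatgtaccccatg
Kcng4: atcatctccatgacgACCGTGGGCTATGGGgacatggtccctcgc
Kcnb2: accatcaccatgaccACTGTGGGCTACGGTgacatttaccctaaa
Kcnd1: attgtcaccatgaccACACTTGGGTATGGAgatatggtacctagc
Kcnc4: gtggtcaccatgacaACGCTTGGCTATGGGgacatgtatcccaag
Kcnh4: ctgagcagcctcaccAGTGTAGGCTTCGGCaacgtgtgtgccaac

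The search was made in frame on the coding strand alone, with the codons ACN, NTN, GGN and TAN followed by GG, or, for the Kcnh form, NTN, GGN, TTN and GGN. Of the 40 members, 32 held the first form and all 8 Kcnh genes held the second. Among 21591 genes with a coding sequence, 0.32% held the first form and 3.89% the second, which is the looser pattern. The second codon of the capitals is shared by some subfamilies and differs between others. It began with GT in the Kcna, Kcnb and modifier genes, as in the windows of Kcna2, Kcnb2 and Kcng4. It began with GT in 7 of the 8 Kcnh genes too, with the same GTA in Kcnh4 as in Kcna2, and it was ATA in Kcnh5. The Kcnc and Kcnd genes shared CTG and CTT, as in Kcnc4 and Kcnd1, and Kcnc2 had TTA. Over the 45 bases printed, Kcna6 matched Kcna2 at 31 positions, Kcng4 at 34 and Kcnh4 at 24. How the counting treated reads shared between such relatives is not given in the sources used here.

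Values below are FPKM divided by a library scaling factor (scaled FPKM), listed over the animals in the order 970, 971, 974 and 977, and group values are mean ± SD over 4 animals. Changes are given as log2(scaled FPKM + 1) ± SE, a scale that understates the change of low genes. They come from a limma fit over all 13470 genes that passed the filter, with Benjamini-Hochberg adjustment over those genes and calls at adjusted p under 0.05. Estimated depth was 4140000 to 8960000 counted fragments in striatal input, 9030000 to 12230000 in hippocampal input and 13950000 to 22600000 in the IPs. All 12 astrocyte markers were called higher in IP in both regions, and Aldh1l1, whose promoter drives the Cre, had a log2 change of 4.47 ± 0.21 and 4.35 ± 0.21. Of 16 pan-neuronal markers, 16 fell in hippocampal IP and 14 in striatal IP, and none was at 0. Their summed level fell from at least 3180.4 in every hippocampal input to at most 377 in every hippocampal IP, and from at least 2108 to at most 447 in the striatum. Taken per animal, the median of these markers in IP was 6.82% to 13.6% of input in the hippocampus and 9.79% to 24.0% in the striatum, and in both regions it was highest in animal 974 and next highest in 977. As an alternative, the same animal's input times that median was taken off each IP, and this is called removal of carry-over below. The striatal inputs of animals 971 and 974 stood apart from the other striatal inputs for several members, and called changes that moved by over 1.5 times or lost the call without them are given both ways where they are printed. The striatal inputs of 974 and 971 also had the lowest estimated depth of all libraries, with 974 at 4140000 counted fragments. Their scaling factors were 1.01 for 974 and 1.11 for 971, against 1.24 for 970 and 1.30 for 977. The part of depth in their values was not tested. In bulk RNA, fewer cells of a type and less RNA per cell cannot be told apart.

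Most of these channel genes were lower in ribosome RNA of astrocytes than in the tissue. In the hippocampus, 27 of the 34 tested members fell in IP, 4 rose and 3 were not called, beside 31.7% of all tested genes called lower and 33.7% called higher. In the striatum 26 fell, 4 rose and 4 were not called, beside 30.3% called lower and 34.7% called higher. The median log2 change of the members was -1.58 in the hippocampus and -1.01 in the striatum, against -0.004 and 0.04 over all tested genes. Kcng4 rose in both regions, and Kcna6 and Kcnc4 rose in the striatum. Kcna2 and Kcnd1 rose in the hippocampus, where unscaled values turn the sign of both. With no filter on low values, so that all 40 members entered, the counts were 4 higher and 27 lower in the hippocampus and 4 higher and 25 lower in the striatum. The filter itself admits some members through inputs alone: in 7 of the 34 (Kcna5, Kcnb2, Kcnf1, Kcnh2, Kcns1, Kcns2 and Kcns3) no IP library reached 1 FPKM, and Kcna5 passed only through the 4 striatal inputs and Kcns3 only through the 4 hippocampal inputs. The changes of these 7 from input to IP are therefore a description. Without animal 970, 2 were called higher in hippocampal IP, since Kcna2 was not called and 1 other member no longer passed the filter.

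**Figure D1:**
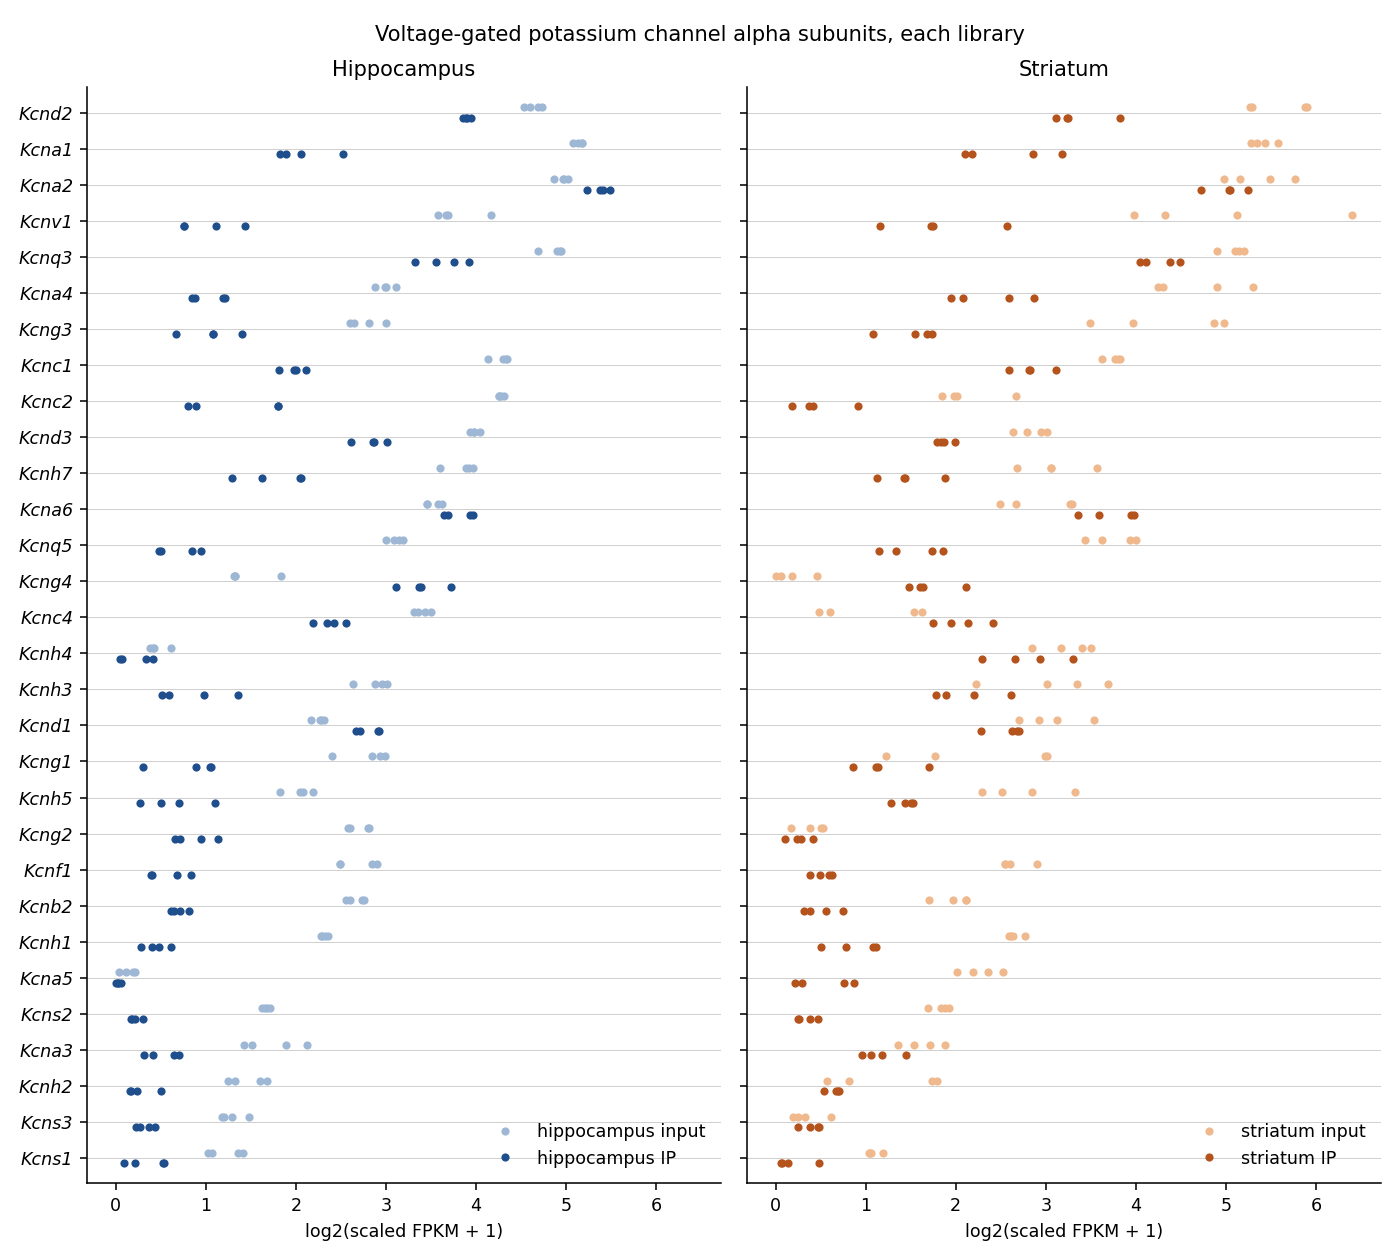
Level of 30 of the tested subunits in each library, on a log2(scaled FPKM + 1) axis, for hippocampus (left) and striatum (right), with pale points for input and dark points for IP, 1 point per animal. Dark points lie left of pale points for most genes and right of them for Kcng4 and Kcna6 in both panels, for Kcna2 and Kcnd1 in the hippocampus panel and for Kcnc4 in the striatum panel. In the hippocampus Kcna2, Kcnd1 and Kcna6 turn when the values are left unscaled.

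The summed level of the 40 members was 325 ± 9.21 scaled FPKM in hippocampal input and 136 ± 2.60 in hippocampal IP. The striatal sums were 400.2 ± 62.7 in input and 138 ± 6.23 in IP. Single members took different shares of that sum in tissue and in ribosome RNA. Kcna2 made up 9.25 ± 0.18% of the sum in hippocampal input and 29.9 ± 2.49% in hippocampal IP, and in the striatum its mean share was 10.04% in input and 22.9 ± 3.61% in IP. Kcna1, at 10.6 ± 0.51% and 10.5 ± 0.68% of the sum in the inputs of hippocampus and striatum, was at 2.41 ± 0.70% and 3.80 ± 1.57% in the IPs. Kcng4 was 0.54 ± 0.15% of the sum in hippocampal input and 7.10 ± 1.30% in hippocampal IP. No test was made of these shares.

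**Figure D2:**
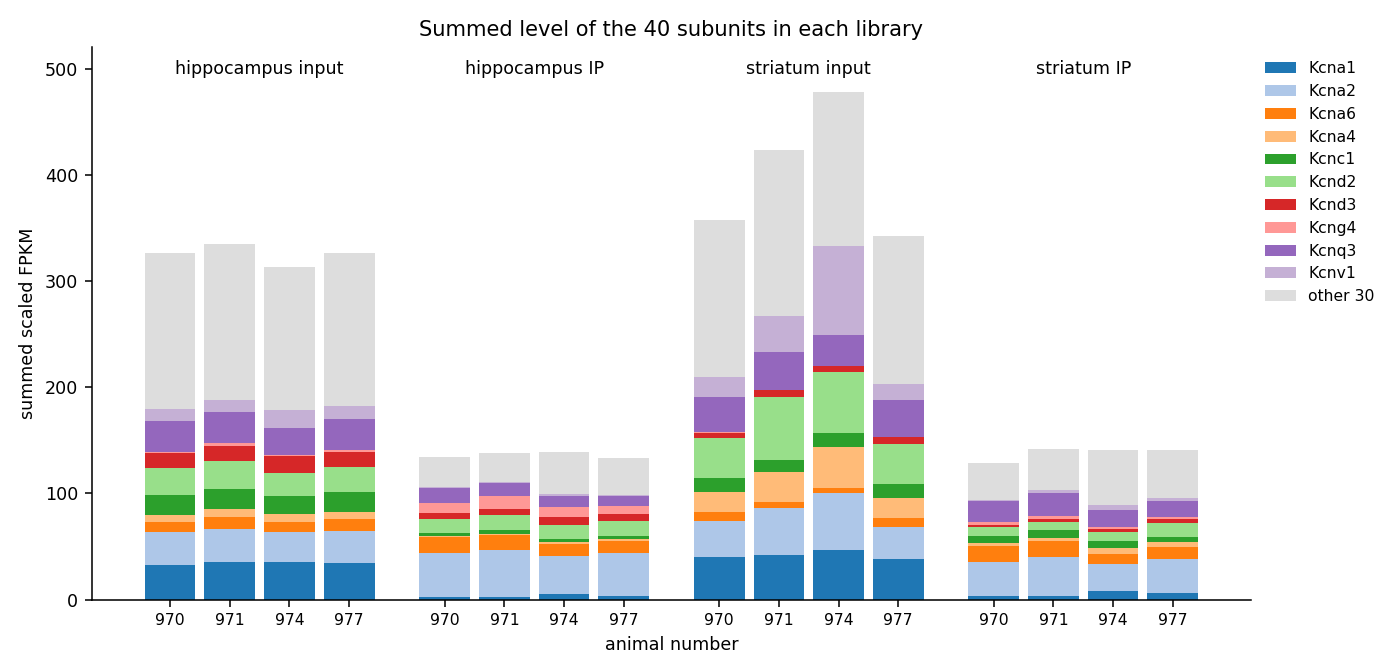
Summed level of the 40 subunits in each library in scaled FPKM, stacked by gene for 10 of them with the other 30 in grey, by group and animal number. The IP columns are 129 to 141 high and Kcna2 is their widest single part, and the striatal input columns run from 342 to 478, with Kcnv1 widest in animal 974.

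Kcna genes, the Kv1 subunits, held the most abundant member in both IP groups. Of the 6 tested, 1 rose and 3 fell in hippocampal IP, and 1 rose and 4 fell in striatal IP. Kcna2, a main subunit of axonal Kv1 channels (chr3:107101146-107115005, plus strand), was at 30.5, 31.4, 28.1 and 30.3 scaled FPKM in hippocampal input and 41.7, 44.1, 36.5 and 40.5 in hippocampal IP. All 4 IP libraries lay above all 4 inputs (log2 change 0.42 ± 0.16, adjusted p = 0.0247), while unscaled values gave -0.26 (adjusted p = 0.0238), below 0 but above the median of all genes, which was -0.51 without scaling. The call did not hold with median-of-ratios scaling (0.36, adjusted p = 0.0540), after removal of carry-over (0.45, adjusted p = 0.0786) or without animal 970, 971 or 977 (0.40 to 0.43, adjusted p = 0.0602 to 0.0989). Striatal values were 34.6, 43.9, 53.7 and 30.4 in input and 32.1, 36.9, 25.3 and 31.8 in IP. Those groups overlapped, with the inputs of 971 and 974 highest, and the difference was not called (log2 change -0.33 ± 0.16, adjusted p = 0.0693).

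Kcna6, another Kv1 subunit (chr6:126708329-126740674, minus strand), was at 9.99, 11.3, 9.95 and 11.0 in hippocampal input and 14.6, 14.3, 11.5 and 11.9 in hippocampal IP. The IP libraries were all above the inputs by a small margin on scaled values and all below them on unscaled ones, and the difference was not called (log2 change 0.28 ± 0.18, adjusted p = 0.191). The striatum gave 8.68, 5.38, 4.64 and 8.81 in input and 14.8, 14.4, 9.26 and 11.0 in IP. Here too every IP library was above every input, with the inputs of 971 and 974 lowest, and the rise was called (log2 change 0.78 ± 0.18, adjusted p = 0.00128). Without those 2 inputs it was 0.41 (adjusted p = 0.0250), and on unscaled values it was not called, at 0.43 (adjusted p = 0.0645). The gene overlaps Gm26673 on the opposite strand by 2355 exonic bases, and the library kit does not mark strand, so reads of the 2 genes cannot be told apart. Kcna6 and Kcna2 were the only Kcna genes with an IP mean over 10 scaled FPKM in either region.

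Kcna1, which pairs with Kcna2 in axonal channels, had the largest fall of the 34 tested members in the hippocampus. Its level was 32.8, 35.3, 35.2 and 34.2 in hippocampal input and 2.53, 2.70, 4.73 and 3.18 in hippocampal IP. The striatal inputs were at 39.6, 42.2, 46.9 and 37.8 and the striatal IPs at 3.30, 3.52, 8.07 and 6.26. No IP library came near an input, and animal 974 had the highest IP value in both regions, with a log2 change of -3.07 ± 0.21 in the hippocampus (adjusted p = 1.43e-09) and -2.83 ± 0.21 in the striatum (adjusted p = 4.97e-09). Of all 13470 tested genes, 98.9% ranked above Kcna1 in the hippocampal change. Kcna1 (chr6:126640397-126646384, minus strand) lies between Kcna5 and Kcna6 in a gene cluster on chromosome 6, and Kcna2 lies beside Kcna3 on chromosome 3.

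Kcna4, the A-type member of the Kv1 group, differed by region in both kinds of RNA. Its hippocampal values were 6.37, 6.96, 7.62 and 7.002 in input and 0.797, 0.847, 1.32 and 1.28 in IP. Its striatal values were 18.0, 28.9, 38.6 and 18.7 in input and 3.22, 2.87, 6.30 and 5.01 in IP. IP was below input in all animals, with a log2 change of -1.96 ± 0.23 in the hippocampus (adjusted p = 1.03e-06) and -2.32 ± 0.23 in the striatum (adjusted p = 1.68e-07). Striatum was above hippocampus without overlap, by 1.34 ± 0.23 in IP (adjusted p = 6.70e-04) and 1.69 ± 0.23 in input (adjusted p = 2.27e-05). The striatal inputs were highest in 971 and 974, and without them the input difference was 1.21 (adjusted p = 8.90e-04). The IP values were highest in 974 and 977, the animals with the most neuronal marker RNA in IP, and after removal of carry-over the IP difference was 0.24 (adjusted p = 0.673).

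Kcna5, a Kv1 subunit best known from heart and vessels (chr6:126532551-126535412, minus strand), was near 0 in the hippocampus, with 0.157, 0.0253, 0.143 and 0.0861 in input and 0, 0.0201, 0.0413 and 0.0205 in IP. In the striatum it was at 3.04, 4.14, 4.74 and 3.58 in input and 0.229, 0.162, 0.826 and 0.689 in IP. The striatal inputs stood far above every other library, and the striatal IPs of 974 and 977 were above those of 970 and 971. Since the striatal inputs alone admitted Kcna5 to the test, its differences from them are a description, at 2.13 ± 0.15 for striatum over hippocampus in input and -1.63 ± 0.21 for the difference between the regions' differences. In IP, where no library of Kcna5 reached 1 FPKM, the striatum exceeded the hippocampus by 0.51 ± 0.15, also given as a description. After removal of carry-over the IP difference was 0.01 (adjusted p = 0.954). Kcna3, a Kv1 subunit of neurons and immune cells, fell in hippocampal IP from 2.40 ± 0.784 to 0.441 ± 0.184 (log2 change -1.22 ± 0.17, adjusted p = 8.95e-06). Its fall in striatal IP, from 2.11 ± 0.485 to 1.26 ± 0.344 (log2 change -0.46 ± 0.17, adjusted p = 0.0264), was not called without animal 970 or 977 (-0.46 to -0.31, adjusted p = 0.0783 to 0.207).

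**Figure D3:**
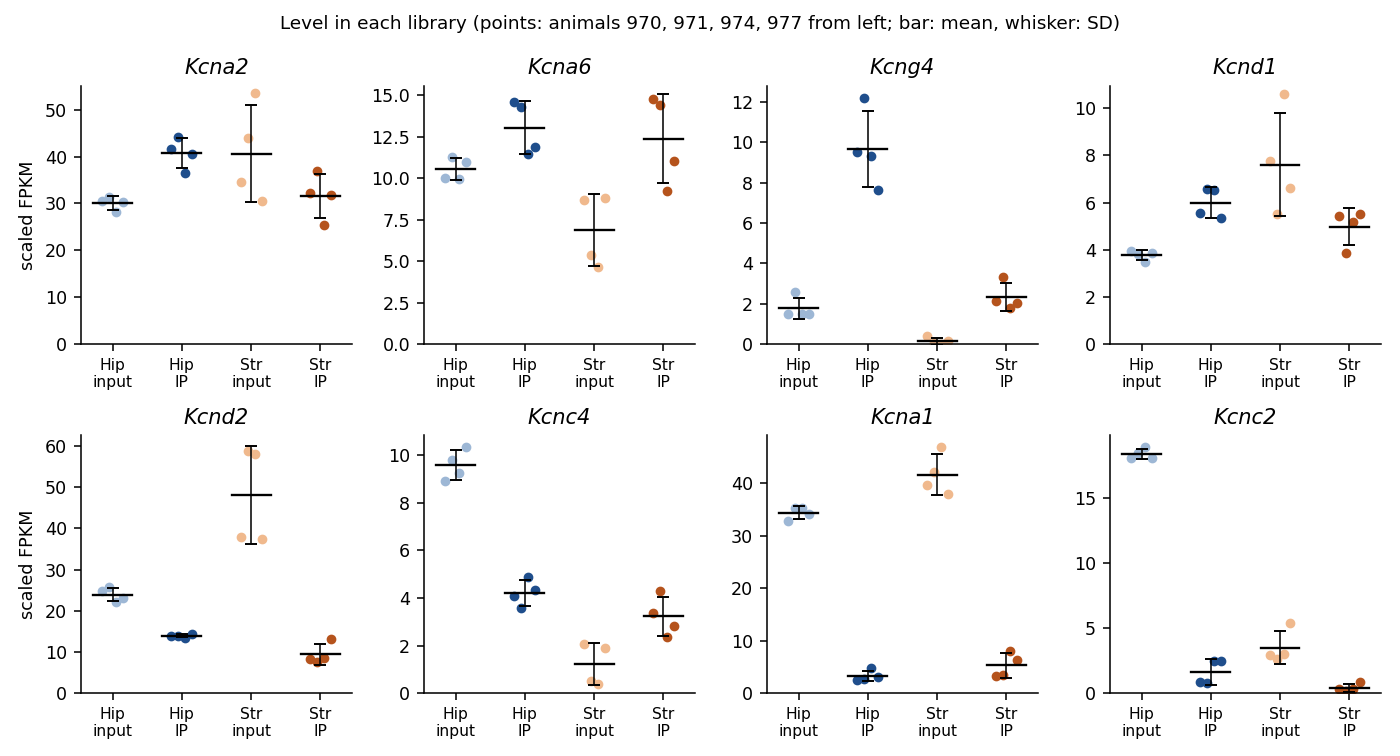
Scaled FPKM of 8 subunits in each library, by group, with points for the animals in the order 970, 971, 974 and 977, a line for the mean and a whisker for the SD. Kcng4 is higher in IP in both regions, Kcnc4 is lower in IP in the hippocampus and higher in the striatum, and Kcna1, Kcnc2 and Kcnd2 are lower in both, while the hippocampal rise of Kcna2 and Kcnd1 turns when the values are left unscaled.

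Kcnb genes encode the Kv2 delayed rectifiers to which the modifier subunits bind. Kcnb2 was at 5.67, 5.77, 4.90 and 5.07 in hippocampal input and 0.751, 0.534, 0.643 and 0.568 in hippocampal IP. Its striatal inputs were at 2.92, 3.34, 3.31 and 2.26 and its striatal IPs at 0.247, 0.298, 0.467 and 0.676. No IP library reached an input library in either region, with a log2 change of -1.97 ± 0.13 in the hippocampus and -1.48 ± 0.13 in the striatum. Inputs alone took Kcnb2 past the filter, so these changes are a description. Kcnb2 was lower in striatal than in hippocampal input (log2 change -0.69 ± 0.13, adjusted p = 4.33e-04), and the region difference in IP was not called (log2 change -0.20 ± 0.13, adjusted p = 0.352).

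Kcnc1, Kcnc2 and Kcnc4, genes of the Kv3 subunits of fast-firing neurons, were lower in striatal than in hippocampal input, while in IP Kcnc1 was higher in striatum, Kcnc2 was lower and Kcnc4 was not called. Kcnc1 (chr7:46396497-46438704, plus strand) was at 19.1, 19.4, 16.6 and 18.7 in hippocampal input and 2.51, 3.34, 2.96 and 3.00 in hippocampal IP. The striatal values were 13.1, 11.4, 12.6 and 13.0 in input and 6.01, 7.69, 6.10 and 5.05 in IP. From high to low the groups were hippocampal input, striatal input, striatal IP and hippocampal IP, with no overlap between neighbours. IP against input gave a log2 change of -2.30 ± 0.12 in the hippocampus (adjusted p = 6.68e-11) and -0.92 ± 0.12 in the striatum (adjusted p = 3.48e-06). Striatum against hippocampus gave 0.86 ± 0.12 in IP (adjusted p = 8.59e-05) and -0.52 ± 0.12 in input (adjusted p = 0.00248), and the test of the difference between these gave 1.38 ± 0.17 (adjusted p = 3.40e-05). After removal of carry-over the IP difference was 1.23 (adjusted p = 3.04e-04).

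Kcnc2, a Kv3 subunit of interneurons, was at 18.1, 18.4, 18.8 and 18.0 in hippocampal input and 0.852, 0.7504, 2.49 and 2.49 in hippocampal IP. Its striatal inputs were at 2.95, 2.61, 3.03 and 5.36 and its striatal IPs at 0.333, 0.138, 0.292 and 0.891. The hippocampal IPs of 974 and 977 were well above those of 970 and 971, and in the striatum 977 was highest in both kinds of RNA. IP was below input without overlap, with a log2 change of -2.95 ± 0.24 in the hippocampus (adjusted p = 1.29e-08) and -1.66 ± 0.24 in the striatum (adjusted p = 1.33e-05). In input the striatum was lower without overlap (log2 change -2.15 ± 0.24, adjusted p = 2.71e-06). In IP it was lower with overlap (log2 change -0.85 ± 0.24, adjusted p = 0.0251), and that call did not hold on unscaled values (-0.70, adjusted p = 0.110), after removal of carry-over (-0.17, adjusted p = 0.578) or without animal 970, 971 or 974 (-0.99 to -0.64, adjusted p = 0.0557 to 0.199). Of 8 interneuron markers, 8 fell in hippocampal IP and 7 in striatal IP, none was at 0, and their summed level was 464 to 570.1 and 598 to 831 in the inputs of hippocampus and striatum, and 13.0 to 22.9 and 24.5 to 54.1 in the IPs. Their part in the Kcnc values was not tested.

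Kcnc4, which encodes an A-type Kv3 subunit (chr3:107438303-107459552, minus strand), was the member whose IP change differed most between the regions. Hippocampal values were 8.93, 9.79, 9.25 and 10.3 in input and 4.08, 3.57, 4.86 and 4.36 in IP. All 4 IPs were below all 4 inputs (log2 change -1.02 ± 0.23, adjusted p = 7.66e-04). The striatal inputs were at 2.07, 0.516, 0.395 and 1.90, from 63.1, 12.1, 6.1 and 81.3 estimated fragments, and the striatal IPs at 3.39, 4.31, 2.36 and 2.84. Here all 4 IPs were above all 4 inputs, and the inputs of 971 and 974 were far below those of 970 and 977 (log2 change 0.9996 ± 0.23, adjusted p = 9.83e-04). Without the inputs of 971 and 974 the striatal rise was 0.46 (adjusted p = 0.0147). IP levels of the regions overlapped (log2 change -0.32 ± 0.23, adjusted p = 0.416) and input levels did not (log2 change -2.34 ± 0.23, adjusted p = 4.79e-07). The difference of the region differences was 2.02 ± 0.32 (adjusted p = 4.13e-04), or 1.60 (adjusted p = 6.46e-05) without those 2 inputs.

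Of the 3 Kcnd genes, pore subunits of the A-type current, 1 rose and 2 fell in hippocampal IP and all 3 fell in striatal IP. Kcnd1 (chrX:7822289-7838280, plus strand) was at 3.96, 3.83, 3.49 and 3.85 in hippocampal input and 5.54, 6.59, 6.52 and 5.33 in hippocampal IP. Every IP exceeded every input (log2 change 0.55 ± 0.16, adjusted p = 0.00558), although on unscaled values the change was -0.03 (adjusted p = 0.878), with the median of all genes at -0.51. Striatal values were 7.75, 5.50, 10.6 and 6.60 in input and 5.42, 3.84, 5.16 and 5.52 in IP. Each animal's IP was below its input, the groups overlapped by a small margin, and the fall was called (log2 change -0.50 ± 0.16, adjusted p = 0.00977). The region difference was -0.23 ± 0.16 in IP (adjusted p = 0.392) and 0.82 ± 0.16 in input (adjusted p = 6.74e-04), and the 2 differed by -1.05 ± 0.22 (adjusted p = 0.00425).

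Kcnd2, the main A-type subunit of dendrites (chr6:21215503-21729805, plus strand), was at 24.8, 25.7, 22.1 and 23.2 in hippocampal input and 13.9, 14.0, 13.5 and 14.4 in hippocampal IP. The mean of these IP values was the second highest among the members, though Kcna6 was higher in animals 970 and 971. They lay in a narrow range below the inputs (log2 change -0.74 ± 0.17, adjusted p = 9.78e-04), a call lost after removal of carry-over (-0.85, adjusted p = 0.166). The striatum had 38.0, 58.7, 58.1 and 37.5 in input, with 971 and 974 highest, and 8.40, 7.66, 8.52 and 13.2 in IP, with 977 highest (log2 change -2.23 ± 0.17, adjusted p = 6.97e-09). Striatum was higher in input (log2 change 0.95 ± 0.17, adjusted p = 3.52e-04) and lower in IP (log2 change -0.54 ± 0.17, adjusted p = 0.0420), both without overlap. The test of the difference gave -1.49 ± 0.24 (adjusted p = 4.46e-04). Without the striatal inputs of 971 and 974 it was -1.07 (adjusted p = 0.00291), and the input difference alone was 0.56 (adjusted p = 0.0177). The IP region call did not hold with the replicate block (-0.54, adjusted p = 0.0558), unfiltered (-0.54, adjusted p = 0.0603), unscaled (-0.36, adjusted p = 0.225) or without animal 970, 971 or 974 (-0.51 to -0.46, adjusted p = 0.158 to 0.201).

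Kcnd3, the remaining A-type pore subunit, fell in IP and was lower in striatum in both kinds of RNA. It was at 14.3, 14.7, 15.5 and 14.7 in hippocampal input and 5.12, 6.27, 7.08 and 6.32 in hippocampal IP. Striatal values were 5.22, 6.73, 5.94 and 7.09 in input and 2.58, 2.45, 2.65 and 2.98 in IP. Of the 4 groups, hippocampal IP and striatal input alone overlapped. IP against input gave a log2 change of -1.14 ± 0.11 in the hippocampus (adjusted p = 1.44e-07) and -0.98 ± 0.11 in the striatum (adjusted p = 1.10e-06). Striatum against hippocampus gave -0.97 ± 0.11 in IP (adjusted p = 1.75e-05) and -1.13 ± 0.11 in input (adjusted p = 7.27e-07), and the 2 were not called different (0.16 ± 0.16, adjusted p = 0.533). Kcnd3 shares 165 exonic bases with Kcnd3os on the opposite strand.

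Kcnq3 and Kcnq5, whose products carry the M current, fell in IP in both regions, and Kcnq1 was not tested. Kcnq3, a subunit of neuronal M channels (chr15:65986387-66286642, minus strand), was at 28.8, 29.6, 24.9 and 29.8 in hippocampal input and 14.2, 12.5, 10.8 and 9.03 in hippocampal IP. Striatal inputs were at 33.3, 35.8, 29.0 and 34.4 and striatal IPs at 19.8, 21.6, 16.3 and 15.5. IPs lay below inputs in both regions, with a log2 change of -1.23 ± 0.14 in the hippocampus (adjusted p = 7.44e-07) and -0.83 ± 0.14 in the striatum (adjusted p = 6.40e-05). Striatal IPs lay above hippocampal IPs (log2 change 0.62 ± 0.14, adjusted p = 0.00636), a call lost without animal 971 (0.58, adjusted p = 0.0616) and after removal of carry-over (0.49, adjusted p = 0.112). Kcnq3 was second in level among the members in striatal IP.

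Kcnq5, a further M channel subunit, was at 7.83, 7.49, 8.13 and 7.03 in hippocampal input and 0.417, 0.396, 0.921 and 0.798 in hippocampal IP. Striatal values were 11.4, 14.3, 14.96 and 9.78 in input and 1.21, 1.53, 2.62 and 2.33 in IP. Inputs were above IPs in every animal, IPs of 974 and 977 were above those of 970 and 971 in both regions, and there was a log2 change of -2.41 ± 0.17 in the hippocampus (adjusted p = 2.84e-09) and -2.23 ± 0.17 in the striatum (adjusted p = 9.46e-09). Striatum exceeded hippocampus by 0.83 ± 0.17 in IP (adjusted p = 0.00351) and 0.64 ± 0.17 in input (adjusted p = 0.00870). Removal of carry-over left 0.21 (adjusted p = 0.464) in IP. Leaving out animal 971 gave 0.57 (adjusted p = 0.0857) in input, and leaving out the striatal inputs of 971 and 974 gave 0.35 (adjusted p = 0.229). The gene shares 237 exonic bases with Gm26580.

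The Kcnh genes differed by region in IP: 4 of the 6 tested were higher in striatal than in hippocampal IP and none was lower, beside 7.13% of all tested genes called higher and 5.75% called lower. Of those 4, Kcnh1 and Kcnh5 were not called after removal of carry-over. Kcnh4 passed the filter through striatal libraries alone, so its place in this count is a description. Kcnh4, an ELK channel gene (chr11:100740376-100759942, minus strand), was at 0.335, 0.525, 0.297 and 0.343 in hippocampal input and 0.0512, 0.0320, 0.329 and 0.261 in hippocampal IP, close to 0 throughout. In the striatum it was at 10.3, 9.57, 6.18 and 7.96 in input and 3.88, 5.32, 8.83 and 6.63 in IP. Since striatal libraries alone admitted Kcnh4 to the test, its region differences are a description. Striatal values were far above hippocampal ones, by 2.58 ± 0.19 in IP and 2.77 ± 0.19 in input. IP and input overlapped in the striatum, and the difference was not called (log2 change -0.43 ± 0.19, adjusted p = 0.0553). After removal of carry-over the IP region difference was 2.37. Of 9 striatal projection neuron markers, 7 were higher in striatal than in hippocampal IP and 1 was lower. All 9 fell from striatal input to striatal IP, and none was at 0. Their sum over striatal inputs ran from 1798 to 2092 and over striatal IPs from 195 to 310.3, beside 29.1 to 32.9 and 75.1 to 90.6 in the hippocampus, and their part in the Kcnh4 difference was not tested.

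Kcnh3, also of the ELK group, was at 6.36, 7.08, 5.22 and 6.78 in hippocampal input and 0.505, 0.423, 1.56 and 0.966 in hippocampal IP. Its striatal values were 9.15, 7.06, 3.66 and 11.9 in input, with 974 lowest, and 2.70, 2.42, 5.11 and 3.60 in IP, with 974 highest. Groups were apart in the hippocampus and overlapped in the striatum, with a log2 change of -2.01 ± 0.27 in the hippocampus (adjusted p = 5.36e-06) and -0.95 ± 0.27 in the striatum (adjusted p = 0.00583). The striatal call did not hold without animal 970 (-0.78, adjusted p = 0.0673), and without the striatal inputs of 971 and 974 the fall was -1.42 (adjusted p = 2.24e-04). Striatal IP was above hippocampal IP without overlap (log2 change 1.26 ± 0.27, adjusted p = 0.00443), also after removal of carry-over (1.36, adjusted p = 0.00944), while inputs overlapped (log2 change 0.19 ± 0.27, adjusted p = 0.606).

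The EAG genes Kcnh1 and Kcnh5 fell in IP in both regions and were higher in striatal than in hippocampal IP. Kcnh5 went from 3.11 ± 0.426 to 0.598 ± 0.400 in the hippocampus (log2 change -1.39 ± 0.20, adjusted p = 1.31e-05) and from 5.96 ± 2.27 to 1.71 ± 0.200 in the striatum (log2 change -1.31 ± 0.20, adjusted p = 2.81e-05). Its IP region difference (log2 change 0.79 ± 0.20, adjusted p = 0.0144) was not called after removal of carry-over (0.36, adjusted p = 0.401) or without animal 970 or 971 (0.65 to 0.75, adjusted p = 0.103 to 0.120). Kcnh1 went from 3.97 ± 0.127 to 0.368 ± 0.134 in the hippocampus (log2 change -1.87 ± 0.13, adjusted p = 2.68e-09) and from 5.28 ± 0.351 to 0.851 ± 0.355 in the striatum (log2 change -1.78 ± 0.13, adjusted p = 6.05e-09). Its IP region difference (log2 change 0.42 ± 0.13, adjusted p = 0.0465) was likewise not called after removal of carry-over (0.05, adjusted p = 0.811) or without animal 971, 974 or 977 (0.35 to 0.40, adjusted p = 0.203 to 0.207).

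Of the ERG genes, Kcnh7 and Kcnh2 were tested and Kcnh6 was not. Kcnh7 went from 13.4 ± 1.59 to 2.46 ± 0.837 in the hippocampus (log2 change -2.09 ± 0.21, adjusted p = 1.65e-07) and from 7.74 ± 2.29 to 1.81 ± 0.636 in the striatum (log2 change -1.63 ± 0.21, adjusted p = 3.74e-06), and it shares 696 exonic bases with Gca on the opposite strand. Kcnh2, the cardiac ERG gene, passed the filter through inputs alone, so its IP changes are a description. It went from 1.78 ± 0.403 to 0.205 ± 0.140 in the hippocampus (log2 change -1.202 ± 0.23). Its striatal inputs spread from 0.482 to 2.46, with 971 and 974 low. The striatal fall, likewise a description, had a log2 change of -0.58 ± 0.23. It was not called without animal 970, 971 or 977 (-0.68 to -0.40), with a pseudocount of 0.1 (-0.99) or unfiltered (-0.58). Without the striatal inputs of 971 and 974 it was -1.12.

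Of the 9 modifier genes tested, 1 rose and 8 fell in hippocampal IP, and 1 rose and 6 fell in striatal IP. Kcnf1, Kcns1, Kcns2 and Kcns3, admitted by inputs alone, are in these counts as a description. The 1 that rose was Kcng4, a modifier that is silent alone and alters Kcnb channels, and it had the largest rise of the tested members in both regions (chr8:119623854-119635680, minus strand). It was at 1.49, 2.56, 1.496 and 1.497 in hippocampal input, with 971 highest, and 9.51, 12.2, 9.33 and 7.65 in hippocampal IP. The striatal inputs were at 0.379, 0.0409, 0 and 0.134, from 12, 1, 0 and 6 estimated fragments, and the striatal IPs at 2.10, 3.33, 1.80 and 2.03. IPs lay above inputs in both regions without overlap, with a log2 change of 1.95 ± 0.17 in the hippocampus (adjusted p = 4.04e-08) and 1.53 ± 0.17 in the striatum (adjusted p = 8.81e-07). With so few fragments the size of the striatal change depends on the pseudocount, and at 0.1 it was 3.56 (adjusted p = 5.97e-07).

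Kcng4 was lower in striatum without overlap, by -1.69 ± 0.17 in IP (adjusted p = 5.11e-06) and -1.27 ± 0.17 in input (adjusted p = 2.63e-05), and these differences were not called different from each other (-0.42 ± 0.25, adjusted p = 0.283). After removal of carry-over the IP region difference was -1.70 (adjusted p = 6.94e-06). Of the marker lists of other cell types in hippocampal IP, 0 of 16 pan-neuronal, 0 of 8 oligodendrocyte, 0 of 3 oligodendrocyte precursor, 0 of 8 microglial and 1 of 4 tested endothelial and mural markers were called higher, beside 12 of 12 astrocyte markers. So were 0 of 8 interneuron, 0 of 10 hippocampal principal neuron and 0 of 2 tested ependymal markers. Of 9 striatal projection neuron markers 1 was called higher there (Ppp1r1b, log2 change 2.77 ± 0.33). In striatal IP 6 of the 12 astrocyte markers were lower than in hippocampal IP, with a median log2 change of -0.64 over the 12, and their part in the region difference of Kcng4 was not tested.

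Kcnv1, another modifier of Kcnb channels, had the largest fall of the tested members in the striatum. It was at 11.7, 10.9, 17.0 and 11.95 in hippocampal input, with 974 highest, and 0.687, 0.685, 1.70 and 1.16 in hippocampal IP. The striatum had 19.0, 34.0, 83.7 and 14.8 in input, with 974 and 971 highest, and 1.22, 2.30, 4.95 and 2.35 in IP. No IP reached any input of its region, with a log2 change of -2.77 ± 0.41 in the hippocampus (adjusted p = 1.80e-05) and -3.16 ± 0.41 in the striatum (adjusted p = 4.79e-06). Without the striatal inputs of 971 and 974 the striatal fall was -2.37 (adjusted p = 1.24e-05). Its region difference in input (log2 change 1.18 ± 0.41, adjusted p = 0.0348) rested on the same libraries, at 0.30 (adjusted p = 0.548) without them. That call also did not hold without animal 970 or 971 (1.06 to 1.36, adjusted p = 0.0551 to 0.196), with a pseudocount of 0.1 (1.23, adjusted p = 0.0567) or unfiltered (1.18, adjusted p = 0.0518).

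Kcng3, of the same subfamily as Kcng4, was at 6.04, 5.24, 6.99 and 5.05 in hippocampal input and 1.11, 0.594, 1.11 and 1.65 in hippocampal IP. Striatal inputs were at 14.6, 28.3, 30.7 and 10.3 and striatal IPs at 1.12, 2.20, 2.32 and 1.93. Inputs exceeded IPs in both regions, with a log2 change of -1.70 ± 0.27 in the hippocampus (adjusted p = 3.61e-05) and -2.82 ± 0.27 in the striatum (adjusted p = 1.37e-07). The striatal inputs of 971 and 974 were above those of 970 and 977, and the input region difference (log2 change 1.57 ± 0.27, adjusted p = 3.03e-04) was 0.90 (adjusted p = 0.00727) without them. Kcng2 was at 5.97, 6.01, 4.997 and 5.09 in hippocampal input and 0.572, 0.923, 1.19 and 0.635 in hippocampal IP. Its striatal values were 0.128, 0.442, 0.423 and 0.303 in input and 0.178, 0.217, 0.334 and 0.0736 in IP. All 4 hippocampal inputs stood far above the other libraries and were 4 of the 5 libraries that took the gene past the filter. The remaining 1 was a hippocampal IP, so the changes of Kcng2 are a description. In hippocampal IP it was lower than in input (log2 change -1.84 ± 0.13). Striatum was lower by -0.60 ± 0.13 in IP and -2.30 ± 0.13 in input, and the 2 differed by 1.70 ± 0.19. The IP region difference was not called after removal of carry-over (-0.20, adjusted p = 0.381) or without animal 971 or 977 (-0.59, adjusted p = 0.0589 to 0.0600). Kcng2 shares 272 exonic bases with D330025C20Rik.

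The other modifiers were low in both IP groups. Kcng1 went from 6.01 ± 1.197 to 0.810 ± 0.397 in the hippocampus (log2 change -1.97 ± 0.34, adjusted p = 6.93e-05). Its fall in the striatum, from 4.45 ± 3.01 to 1.36 ± 0.627 (log2 change -1.05 ± 0.34, adjusted p = 0.0116), was not called without animal 970 or 977 (-0.78 to -0.68, adjusted p = 0.0999 to 0.139). The striatal inputs of 971 and 974 were low, and without them the fall was -1.82 (adjusted p = 1.69e-05). Kcnf1, admitted to the test by inputs alone, is given as a description. It went from 5.48 ± 0.996 to 0.508 ± 0.231 (log2 change -2.10 ± 0.14) in the hippocampus and from 5.31 ± 0.786 to 0.440 ± 0.108 (log2 change -2.13 ± 0.14) in the striatum. Kcns1, Kcns2 and Kcns3 had IP means of at most 0.318 scaled FPKM. Kcns1 and Kcns2, admitted by inputs alone, were lower in IP in both regions, given as a description. Kcns3, admitted to the test by its hippocampal inputs alone, was at 1.46 ± 0.242 in hippocampal input and 0.253 ± 0.0822 in hippocampal IP, also given as a description. In the striatum Kcns3 was at 0.279 ± 0.175 in input and 0.318 ± 0.0973 in IP (log2 change 0.05 ± 0.12, adjusted p = 0.735).

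Each IP was next set against the same animal's input and against the neuronal markers. Of the 31 tested members with a mean of at least 1 scaled FPKM in hippocampal input, Kcna2, Kcna6, Kcnd1, Kcnd2 and Kcng4 had means above the highest of the 16 pan-neuronal markers (Map2, 55.2% of input), and the other 26 did not. In animal 971 Kcnd2 was below Map2, at 54.4% against 59.5%. Kcng4 was at 562 ± 80.5% of input, Kcnd1 at 159 ± 24.0%, Kcna2 at 135 ± 4.39%, Kcna6 at 124 ± 16.7% and Kcnd2 at 58.3 ± 3.63% (SD, n = 4 animals). The median of the 31 was 17.4%, beside 4.04% for the lowest marker, Snap25. In the striatum, Kcna6 at 191 ± 59.7% and Kcnc4 at 437 ± 338% were the members of 30 above the highest marker (Tubb3, 93.4%), and the median of the 30 was 28.2%. Tubb3 spread widely there, at 52.3%, 136%, 157% and 29.0%, so the highest marker is an unlike cut in the 2 regions. Above 50% of input were 5 of the 31 members in the hippocampus and 11 of the 30 in the striatum, beside 1 and 3 of the 16 markers. For Kcnc4 the animals gave 163%, 835%, 598% and 149.8%, and the high values belong to the animals with low striatal inputs. No percent was formed for Kcng4 in the striatum, where an input was at 0. The percentages were not tested, and how much of each member's IP level came from cells other than astrocytes was not tested.

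**Figure D4:**
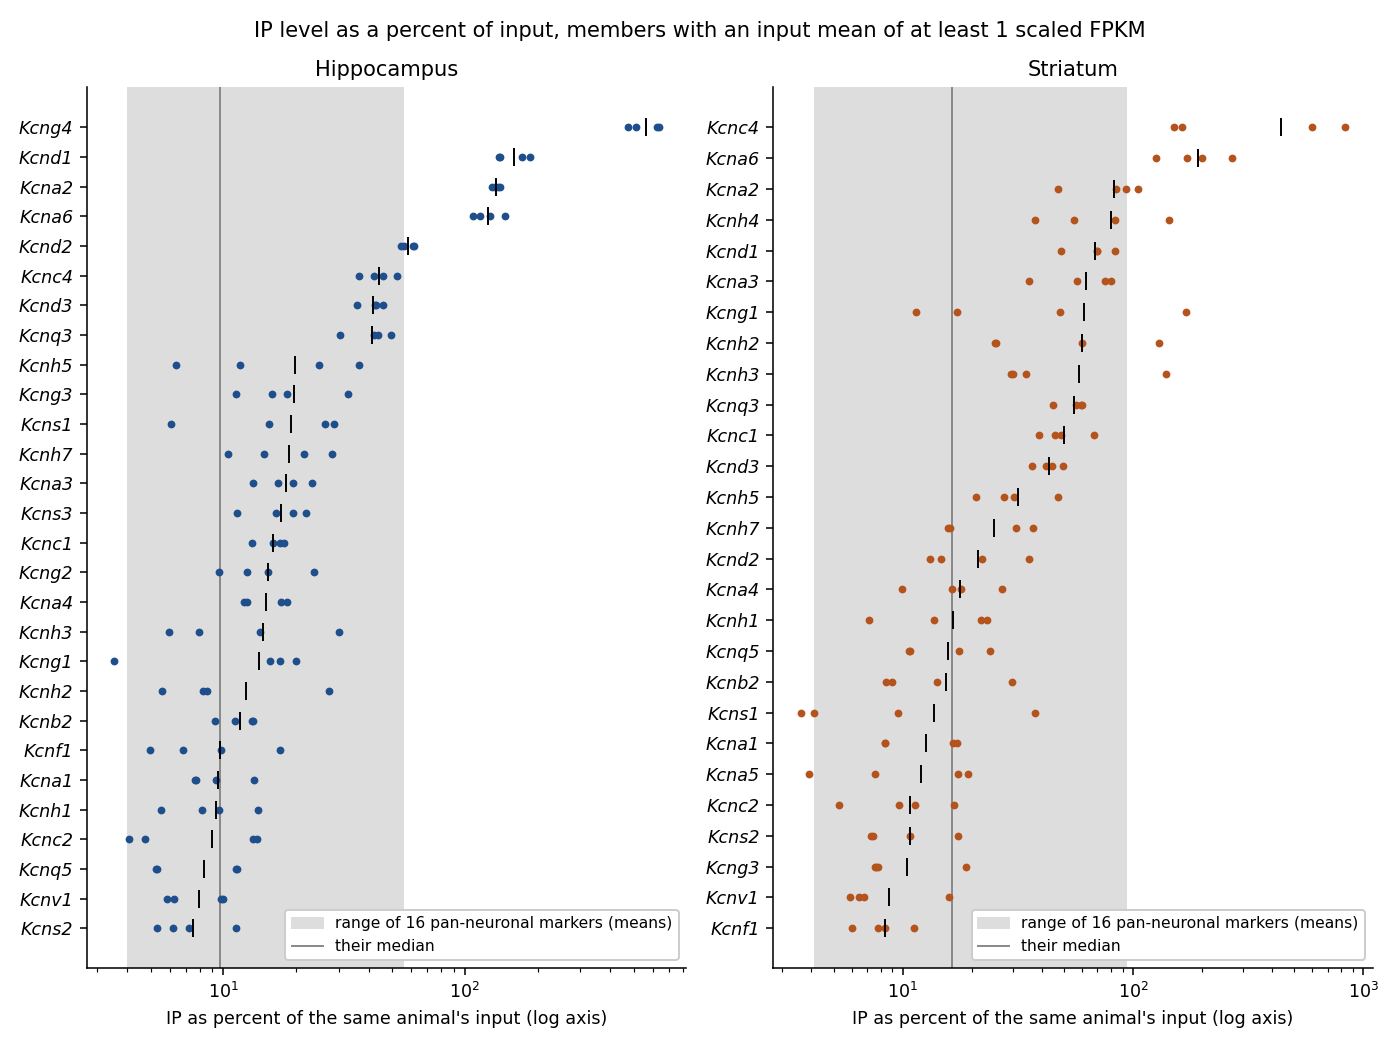
IP as a percent of the same animal's input on a log axis, for members with an input mean of at least 1 scaled FPKM in hippocampus (28 drawn, left) and striatum (right), with a point per animal and a tick at the mean, over a grey band from the lowest to the highest of 16 pan-neuronal markers. Kcng4, Kcnd1, Kcna2, Kcna6 and Kcnd2 have means to the right of the band in the hippocampus on scaled values, and Kcnc4 and Kcna6 do so in the striatum.

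The region comparison asked which subunits differ between striatum and hippocampus. In IP, 10 of the 34 tested members were higher in striatum and 5 were lower, beside 7.13% of all tested genes called higher and 5.75% called lower. The higher genes were Kcnh4, Kcna4, Kcnh3, Kcnc1, Kcnq5, Kcnh5, Kcna3, Kcnq3, Kcna5 and Kcnh1, and the lower genes were Kcng4, Kcnd3, Kcnc2, Kcng2 and Kcnd2. Kcnh4 and Kcna5 passed the filter through striatal libraries alone and Kcng2 through hippocampal ones alone, so their places here are a description. With no filter, 9 of all 40 members were higher and 4 lower. After removal of carry-over 4 were called higher, namely Kcnh4, Kcnh3, Kcnc1 and Kcna3, and without animal 971 there were 5 higher and 2 lower. Without 974 there were 2 lower and without 970 there were 3. The median of the 16 pan-neuronal markers, in percent of input, was higher in striatal than in hippocampal IP in every animal. Compared between the IPs, 2 of the 16 were called higher in striatum and 0 lower, with a median log2 change of 0.085. In input, 5 of the 16 were lower in striatum and 0 higher. Of 8 oligodendrocyte markers 6 were higher in striatal IP, with a summed level of 39.8 to 79.6 against 15.5 to 31.8. Their part in the region differences was not tested beyond the removal of carry-over. In input, 10 members were higher and 11 lower in striatum, beside 16.8% and 18% of all tested genes. Kcnh4, Kcna5, Kcng2 and Kcns3, each admitted by libraries of 1 region alone, are in these counts as a description. With no filter 9 were higher and 11 lower. Without the striatal inputs of 971 and 974, 6 were higher, and without animal 971 also 6.

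The region difference in IP and that in input were called different for 11 members, 7 with a more positive value in IP and 4 with a more negative one, beside 6.52% and 6.64% of all tested genes. Leaving out any 1 animal left 2 with a more negative value, and 4 were more positive without 970 or 971, in part because Kcna5 and Kcns3 then no longer passed the filter. Among the 7 were Kcnc1, Kcnc2, Kcnc4, Kcng2, Kcns3 (1.02 ± 0.17) and Kcna3 (0.76 ± 0.24, adjusted p = 0.0493). The 4 with a more negative value were Kcna5, Kcnd2, Kcnd1 and Kcna2 (-0.76 ± 0.22, adjusted p = 0.0312). Kcns3 and Kcna5 passed the filter only through the group in which each is high, and Kcng2 only through hippocampal libraries, where it is high. Their places in these counts are read as a description, and with no filter the counts were 6 and 4 of all 40 members. Kcna2 was not called here without any 1 of the animals (-0.89 to -0.45, adjusted p = 0.0544 to 0.159) or without the striatal inputs of 971 and 974 (-0.36, adjusted p = 0.154). Kcna3 was not called without any 1 of the animals (0.61 to 0.91, adjusted p = 0.0740 to 0.215), with the replicate block (0.76, adjusted p = 0.0521) or without those inputs (0.73, adjusted p = 0.0897). Kcnc2 (1.29 ± 0.34, adjusted p = 0.0178) was not called with a pseudocount of 0.1 (0.65, adjusted p = 0.517) or without animal 970 or 971 (1.12, adjusted p = 0.140 to 0.146). In IP, Kcna3 was at 0.327, 0.245, 0.568 and 0.626 in the hippocampus and 1.08, 1.73, 1.26 and 0.947 in the striatum. The striatal values were all higher (log2 change 0.64 ± 0.17, adjusted p = 0.0188), and the call did not hold without animal 970 or 971 (0.49 to 0.65, adjusted p = 0.0909 to 0.187).

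**Figure D5:**
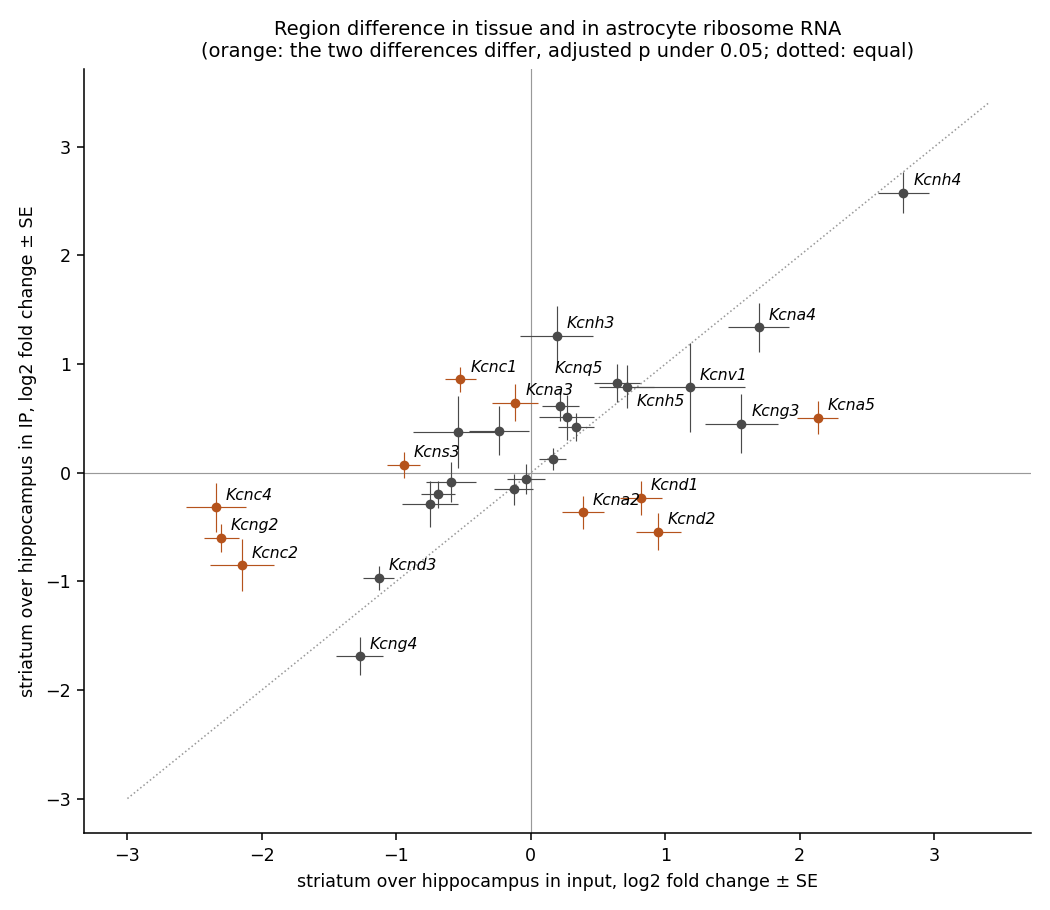
Log2 change of striatum over hippocampus in input (horizontal) and in IP (vertical) for 30 of the tested subunits, with SE bars, a dotted line where both are equal, and orange for the 10 of them whose 2 differences were called different. Kcnc1, Kcnc2, Kcnc4, Kcng2, Kcns3 and Kcna3 lie above the line, Kcna5, Kcna2, Kcnd1 and Kcnd2 lie below it, and Kcnh4, Kcnd3 and Kcng4 lie near it.

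Partners of these channels, a list of 26 auxiliary and anchoring genes, were described in the same way, and 24 were in the tables and 20 passed the filter. Both regions gave 2 higher and 16 lower in IP, beside 33.7% of all tested genes called higher and 31.7% called lower in the hippocampus, and 34.7% and 30.3% in the striatum. Their median log2 change was -1.47 in the hippocampus and -1.33 in the striatum, against -0.004 and 0.04 over all tested genes, and the genes that rose were Kcne1l and Kcnip3 in both. Kcne1l, an inhibitory partner of Kcnq channels, was at 1.42, 1.37, 0.895 and 1.52 in hippocampal input and 26.8, 25.3, 26.6 and 24.3 in hippocampal IP. Its striatal values were 1.83, 0.538, 1.48 and 3.01 in input and 64.3, 55.2, 37.4 and 41.2 in IP. No input came near an IP, with a log2 change of 3.55 ± 0.23 in the hippocampus (adjusted p = 8.37e-10) and 4.27 ± 0.23 in the striatum (adjusted p = 1.91e-10). Kcnip3, whose calcium-binding product joins Kcnd channels, was at 9.46, 11.2, 9.74 and 10.4 in hippocampal input and 45.8, 62.6, 46.9 and 40.02 in hippocampal IP. Striatal inputs were at 15.2, 15.9, 20.3 and 13.3 and striatal IPs at 21.4, 26.1, 20.9 and 20.9. IPs lay above inputs in both regions, with a log2 change of 2.14 ± 0.14 in the hippocampus (adjusted p = 1.52e-09) and 0.45 ± 0.14 in the striatum (adjusted p = 0.0118), and the changes in the 2 regions differed by -1.68 ± 0.20 (adjusted p = 3.82e-05).

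Most other partners fell in IP with the alpha subunits. The beta subunit gene Kcnab2, whose product binds Kv1 channels, went from 18.7 ± 1.996 to 1.94 ± 0.769 in the hippocampus (log2 change -2.78 ± 0.25, adjusted p = 4.39e-08), and Kcnab1 from 35.9 ± 5.73 to 4.74 ± 1.55 in the striatum (log2 change -2.71 ± 0.17, adjusted p = 8.60e-10). Dpp10, whose product joins Kcnd channels, went from 9.09 ± 1.01 to 0.628 ± 0.225 in the hippocampus (log2 change -2.64 ± 0.20, adjusted p = 6.43e-09). Cntnap2, which clusters Kv1 channels beside nodes of Ranvier, went from 11.8 ± 0.805 to 2.31 ± 0.220 there (log2 change -1.96 ± 0.18, adjusted p = 7.39e-08), and the scaffold gene Dlg2 from 46.0 ± 1.62 to 4.88 ± 1.502 (log2 change -3.03 ± 0.23, adjusted p = 7.60e-09). Lgi1, a secreted partner of Kv1 channels, had a smaller fall, from 61.5 ± 2.02 to 42.1 ± 8.32 (log2 change -0.56 ± 0.18, adjusted p = 0.0132). Amigo1, a Kcnb partner singled out after its values were seen, was not called in either region, at 5.39 ± 0.322 and 5.54 ± 0.257 in the hippocampus (log2 change 0.03 ± 0.14, adjusted p = 0.851) and 3.10 ± 0.803 and 3.51 ± 0.567 in the striatum (log2 change 0.15 ± 0.14, adjusted p = 0.359).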

How the data were processed

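RNA of 16 libraries (input and IP of hippocampus and striatum from 4 mice, 4 libraries per group) was sequenced in pairs of reads after amplification with a kit that does not mark strand. Reads were handled with bcl2fastq 2.17, STAR and HTSeq on mm10, per the submitters' processing notes; the annotation and the step to normalized values are not given in the sources used here. The deposited tables name no unit, and their values were read as FPKM made by the authors from fragment counts. Across libraries, the values of 1427 of 1434 low genes (99.5%, tolerance 0.05 of a step) lay on whole-fragment steps. That check was made within each gene, so it cannot tell FPKM from values not divided by gene length. The unit is therefore an assumption, and depth was estimated from those steps. Paralogs and overlapping genes may share reads.

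Each library was divided by a trimmed-mean factor (30% of log ratios and 5% of levels trimmed, factors 0.705 to 1.3) and log2(value + 1) was taken from the deposited FPKM. The 13470 genes that reached 1 FPKM in 4 or more libraries were fitted with limma 3.58.1 in R 4.3.3, with trended and robust variance, 4 group means and 12 residual degrees of freedom. Figures, counts and sequences used Python 3.11.15 with pandas 2.3.3, numpy 2.4.6 and matplotlib 3.10.9. The fit was also run on simulated libraries drawn independently, with no animal effect and, for most genes, no difference between IP and input. That run cannot show how the fit handles the pairing or the many differences between IP and input in these data. P-values rest on the spread of the 16 libraries about their group means, pooled over the 4 groups and moderated across genes. The main fit has no animal term and treats the 4 libraries of an animal as independent, and the replicate block below is the alternative.

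Per-library values were printed for up to 5 called members per direction and comparison with the largest change and a mean of at least 2 scaled FPKM, and for the 6 highest members of each IP group; partners were named if called with a mean of at least 5. Some members enter the counts and sums but are not reported here by name. The members and lists were chosen with earlier results of these data known. Of 24060 gene labels, 22776 (94.7%) matched GENCODE vM21, 27 were date-like and 2 were repeated. The animal numbers in the labels pair the libraries: within an animal, deviations from the group means correlated between the IPs of both regions (r 0.312 to 0.538) and weakly between striatal input and IP (r -0.00771 to 0.0844). Alternatives were a pseudocount of 0.1, no filter, a stricter filter, no scaling, median-of-ratios scaling, plain variance, a replicate block, leaving out each animal, leaving out the striatal inputs of 971 and 974, and removal of carry-over.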

Additional observations from a re-analysis of the deposited data

Results flagged for a closer look

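A value far from the other 3 of its group, judged by the gap to its nearest neighbour over the group's range, was found in 6 of the 90 groups checked, and chance alone gives about 1 in 20. Kcnc2 in striatal input was 5.36 scaled FPKM in animal 977 and 2.61 to 3.03 in the others. Kcnd2 in striatal IP was 13.2 in 977 and 7.66 to 8.52 in the others. Kcnf1 in striatal input was 6.48 in 977 and 4.84 to 5.06 in the others. Kcng4 in hippocampal input was 2.56 in 971 and 1.49 to 1.497 in the others. Kcns1 in striatal input was 1.29 in 970 and 1.05 to 1.09 in the others. Kcnv1 in hippocampal input was 17.0 in 974 and 10.9 to 11.95 in the others.

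The region difference (striatum over hippocampus, log2) was called different between IP and input for 10 members listed here by limma with Benjamini-Hochberg adjustment. It was more positive in IP for Kcnc4 by 2.02, Kcng2 by 1.70, Kcnc1 by 1.38, Kcnc2 by 1.29, Kcns3 by 1.02 and Kcna3 by 0.76. The difference was -1.63 for Kcna5, -1.49 for Kcnd2, -1.05 for Kcnd1 and -0.76 for Kcna2. Kcns3 and Kcna5 passed the filter on low values only through the inputs of the region in which they are high, and Kcng2 only through hippocampal libraries. The values of these genes here are a description. In the same contrast 8 of 10 hippocampal principal neuron markers were called more positive in IP and 9 of 9 striatal projection neuron markers more negative, and their part in the member values was not tested.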

How the results depend on the processing

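Of 108 calls for single members, 103 held with a pseudocount of 0.1 and 103 with no filter, 102 with no scaling, 105 with median-of-ratios scaling, 108 with plain variance and 106 with the replicate block, which lost Kcna3 in the contrast of regions (0.76, adjusted p = 0.0521) and Kcnd2 in the IP region comparison (-0.54, adjusted p = 0.0558) in limma. With the stricter filter 92 held and 15 were not fitted, without the striatal inputs of 971 and 974 98 held, and after removal of carry-over 96 held. Without scaling the hippocampal changes of Kcna2 and Kcnd1 reversed to -0.26 and -0.031, with 2 members higher in hippocampal IP and 3 lower in striatal than hippocampal IP. Removal of carry-over left 4 higher in striatal IP and gave 7 more negative in the contrast of regions. Without the striatal inputs of 971 and 974 there were 6 higher in striatal input and 2 more negative in the contrast, and the stricter filter left 4 more positive. Leaving out 1 animal gave 2 to 4 higher in hippocampal IP, 5 to 8 higher and 2 to 4 lower in striatal than hippocampal IP, 6 to 10 higher in striatal input, and 4 to 5 more positive and 2 more negative in the contrast. Leaving out any animal took Kcna5 and Kcns3 below the filter, and without 974 also Kcng2, so that they were not tested, and the stricter filter likewise dropped Kcna5, Kcng2, Kcnh2 and Kcns3. For the other changes the cause was not tested. Without scaling the median of all genes was -0.51 in hippocampal and -0.25 in striatal IP over input, and of all genes 2496 were called higher and 7113 lower in hippocampal IP (4538 and 4267 scaled), 3151 and 5573 in striatal IP (4675 and 4084), 1003 and 443 in striatal over hippocampal IP (960 and 774), and 1599 and 616 in the contrast (878 and 894). Striatal inputs had the lowest depth, which limits members with few fragments there.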
